A study of Mus musculus with 6 samples.

Results

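Constitutive open regions at gene ends were stretches of chromatin that were accessible in every library of the study and lay at the start or the 3′ end of a protein-coding gene. Peaks of the 6 libraries on chromosomes 1 to 19 and X were merged wherever they shared at least 1 bp. A merged region was kept when it held a peak of all 6 libraries and its midpoint lay within 1 kb of either end of a RefSeq gene. This left 13774 of 134151 merged regions, or 10.3%, and 24.3% of the 56599 regions called in all 6 libraries, which are called common regions here. The peak calls themselves chose the regions, so the counts of regions and genes describe the choice and carry no test.

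The libraries were made by ATAC-seq, in which a transposase cuts into accessible DNA and leaves sequencing adapters there. They came from mouse CD8+ T cells taken from spleen by removal of the other cells and activated with antibodies against CD3 and CD28. For 48 h the T cells shared a transwell with lung adenocarcinoma cells resistant to PD-1 blockade, which were kept apart by a porous membrane. In 3 libraries (Res-ctrl) the tumour cells were the resistant control cells, and in the other 3 (Res-shFabp7) they carried a short hairpin RNA against Fabp7, a fatty acid binding protein. All 6 libraries thus share the activation, the transwell and the PD-1 resistance of the tumour line, and there was no T cell library without tumour cells. Since the hairpin acts in tumour cells, T cell chromatin holds no check of it, and Fabp7 had no peak within 1 kb of its ends in any library. The labels call the libraries biological replicates. They do not say whether the T cells came from separate mice, and they name neither strain, age nor the number of tumour clones.

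Gene starts are usually the most open sites of a genome. The start of a transcribed gene is kept free of nucleosomes by transcription factors and by RNA polymerase, and many mammalian starts lie in CpG islands, stretches that kept their CpG dinucleotides because they are rarely methylated. Such islands are often open in most cell types, while the starts of tissue-specific genes more often have few CpG and open with the cell's state. NF-Y is a ubiquitous trimeric factor with a histone-like fold that binds the sequence CCAAT, often a short way upstream of a start and often in more than 1 copy.

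The 12 sequences printed here were picked to show different strings, and the 3 groups they form come from that choice. Each is the 150 bases upstream of a RefSeq start, 5′ to 3′ along the gene, from RefSeq's table for GRCm38.p6, the assembly that mm10 carries. Capitals mark every match, on either strand, to 1 of 12 short strings that stand for known factors. The first 6 starts were picked, among high regions with mean percentiles of 97.0 to 100, to show 2 copies of the NF-Y string, seen as CCAAT or, on the other strand, ATTGG.
Rab40c: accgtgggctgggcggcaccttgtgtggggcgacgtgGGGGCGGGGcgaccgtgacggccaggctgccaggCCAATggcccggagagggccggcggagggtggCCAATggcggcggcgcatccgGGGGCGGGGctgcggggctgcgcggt
Mxd4: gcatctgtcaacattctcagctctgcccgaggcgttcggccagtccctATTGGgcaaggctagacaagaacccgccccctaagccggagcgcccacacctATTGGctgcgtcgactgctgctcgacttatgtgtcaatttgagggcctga
Tars: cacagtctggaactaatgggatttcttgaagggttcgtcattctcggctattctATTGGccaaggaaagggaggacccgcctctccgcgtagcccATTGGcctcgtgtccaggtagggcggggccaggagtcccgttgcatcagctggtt
Rplp0: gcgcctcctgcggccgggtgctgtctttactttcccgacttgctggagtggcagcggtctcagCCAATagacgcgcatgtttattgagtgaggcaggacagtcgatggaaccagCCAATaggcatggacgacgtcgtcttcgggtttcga
Id2: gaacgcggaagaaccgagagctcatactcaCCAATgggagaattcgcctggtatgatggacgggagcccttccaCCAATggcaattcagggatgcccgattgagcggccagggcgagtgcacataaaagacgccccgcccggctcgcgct
Ftl1: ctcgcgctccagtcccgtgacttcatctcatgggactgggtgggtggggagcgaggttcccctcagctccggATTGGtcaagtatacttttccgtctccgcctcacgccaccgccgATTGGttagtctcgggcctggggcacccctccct
High starts do not all look so. Of the 24 named starts in that range of percentiles, 12 held 2 or more NF-Y strings in these bases, 5 held 1 and 7 held 0, Desi2, Klf2 and Acly among the last. The printed ones lie on GRCm38.p6 at Rab40c at chr17:25919715-25919864 (minus), Mxd4 at chr5:34187711-34187860 (minus), Tars at chr15:11399659-11399808 (minus), Rplp0 at chr5:115559317-115559466 (plus), Id2 at chr12:25096093-25096242 (minus) and Ftl1 at chr7:45459887-45460036 (minus), with the strand in parentheses. In order, the pairs are 32, 52, 41, 51, 44 and 44 bases apart from first letter to first letter. Rab40c encodes an adaptor of a ubiquitin ligase, Mxd4 a repressor that partners Max, Tars the threonyl-tRNA synthetase, Rplp0 a protein of the ribosomal stalk, Id2 an inhibitor of E proteins that shapes effector T cells, and Ftl1 the ferritin light chain. The Rab40c start also holds the SP and KLF string, GGGGCGGGG, on each side of its pair.

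The next 3 starts, shown for the strings beside it, hold a single NF-Y string, at Pkm and Cycs beside another string.
Pkm: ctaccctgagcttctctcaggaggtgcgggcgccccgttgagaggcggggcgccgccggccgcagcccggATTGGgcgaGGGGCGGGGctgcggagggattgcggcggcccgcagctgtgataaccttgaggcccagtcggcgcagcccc
Cycs: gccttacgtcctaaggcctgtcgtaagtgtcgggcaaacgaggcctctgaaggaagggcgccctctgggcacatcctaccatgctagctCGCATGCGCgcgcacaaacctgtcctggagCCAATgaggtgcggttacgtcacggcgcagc
Jun: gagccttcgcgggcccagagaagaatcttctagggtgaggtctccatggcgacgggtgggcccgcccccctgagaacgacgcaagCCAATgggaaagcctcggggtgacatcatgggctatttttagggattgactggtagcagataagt
They lie at Pkm at chr9:59656426-59656575 (plus), Cycs at chr6:50566570-50566719 (minus) and Jun at chr4:95052223-95052372 (minus). Pkm encodes the pyruvate kinase of glycolysis, Cycs encodes cytochrome c, and Jun a subunit of AP-1. The capitals at Pkm also mark the SP and KLF string, and at Cycs they mark the NRF1 string, which stands for a factor of respiratory chain genes and reads GCGCATGCG on its other strand.

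The last 3, shown for contrast, are starts of T cell genes without an NF-Y string in these bases.
Runx3: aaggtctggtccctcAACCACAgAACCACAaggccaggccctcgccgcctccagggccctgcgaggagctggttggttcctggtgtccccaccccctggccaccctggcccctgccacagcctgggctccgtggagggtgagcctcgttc
Gzmb: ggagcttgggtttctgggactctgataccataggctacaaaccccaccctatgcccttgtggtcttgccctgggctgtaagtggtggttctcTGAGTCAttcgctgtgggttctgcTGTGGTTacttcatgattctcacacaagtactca
Ifng: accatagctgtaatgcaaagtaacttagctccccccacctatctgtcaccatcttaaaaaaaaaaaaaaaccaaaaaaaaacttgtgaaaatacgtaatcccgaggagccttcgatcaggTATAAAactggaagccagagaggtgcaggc
They lie at Runx3 at chr4:135120495-135120644 (plus), Gzmb at chr14:56262335-56262484 (minus) and Ifng at chr10:118440896-118441045 (plus). Runx3, which silences Cd4 in CD8 cells, shows the RUNX string TGTGGTT on the other strand in 2 copies that start 8 bases apart. Gzmb, a granzyme of cytotoxic cells, shows a RUNX string 34 to 28 bases and an AP-1 string, TGANTCA, 58 to 52 bases upstream. Ifng, the cytokine interferon gamma, shows a TATA box, TATAAA, 30 to 25 bases upstream. The ratio of observed to expected CpG was taken in the 300 bases around the start, from 250 upstream to 50 downstream. It was 0.264, 0.103 and 0.443 at Runx3, Gzmb and Ifng. At the first 6 starts it was 0.974, 0.645, 0.770, 0.928, 0.711 and 0.673 in the order printed. At Pkm, Cycs and Jun it was 0.852, 1.01 and 0.594.

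The regions lay mostly at starts. RefSeq's promoter table gave the strand of 17274 of the 21631 genes. With it, 10227 regions lay within 1 kb of a start and 971 only near a 3′ end, while 2576 lay at genes without a strand in that table. Of the 22958 merged regions at gene ends 60% held a peak of all 6 libraries, against 38.3% of those inside genes and 38.8% of those outside. A further 1344 regions at ends held a peak of 5 libraries. The missing library was Res-ctrl replicate 2 in 517 of them and Res-ctrl replicate 1 in 366, against 102 to 131 for each of the others. These 2 libraries had the lowest background, the expected coverage recovered from pileup and fold, which stands in for depth (0.608 and 0.709, against 0.868 to 1.03 in the other 4), and the shortest lists (82140 and 84826 peaks, against 96291 to 105776).

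Summits were centred on the start. In each library the highest summit of a start region lay at a median of -2 to 1 bp from the outermost start of the gene, and 58.7 to 59.4% of summits lay within 200 bp of it. About 1 in 4 lay in the 100 bp just upstream (25.7 to 26.8%). Near 3′ ends the summits were spread, with 16.1 to 17.4% within 200 bp of the end and 1.34 to 2.27% in the last 100 bp before it. The midpoint rule bounds both spreads, and the plot of summit positions shows the 6 libraries on top of each other.

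**Figure D1:**
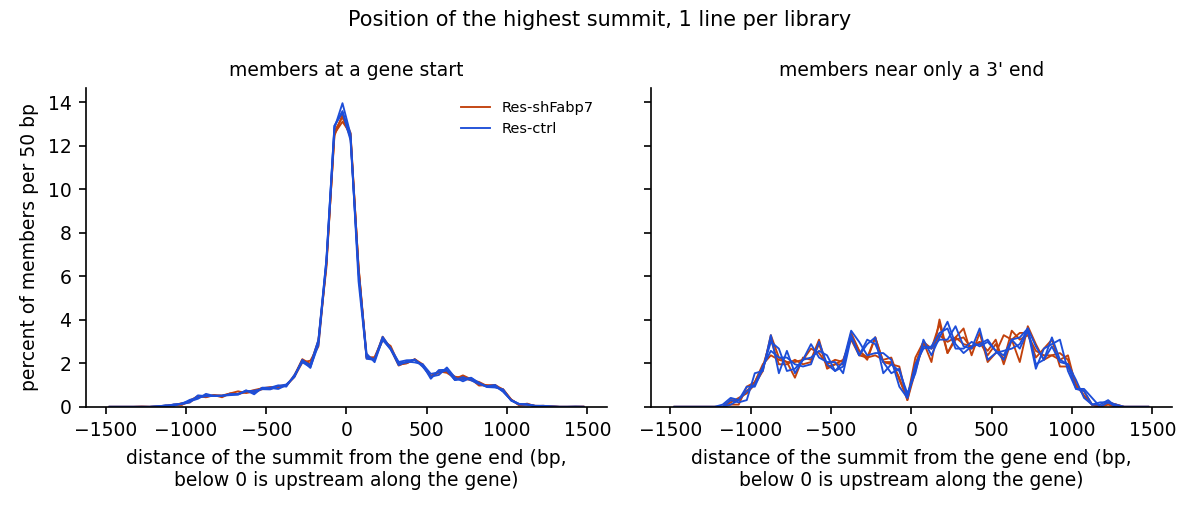
Position of the highest summit of each region relative to the gene end, in bp along the gene (x axis), as percent of regions per 50 bp (y axis), for 10227 regions at starts (left) and 971 near only a 3′ end (right), 1 line per library coloured by group. Start regions peak at the start in all 6 libraries, and 3′ end regions show no such peak.

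Among the common regions, those at starts had the highest median pileup of the position classes compared. The height of a region in a library was the highest pileup of its peaks there, the authors' coverage signal at the summit. The median height of the end regions was 93, 89 and 91 in Res-shFabp7 replicates 1 to 3 and 77, 66 and 102 in Res-ctrl replicates 1 to 3. The other common regions had 39, 36 and 38, and 26, 24 and 39. The median at starts alone was 106, 101 and 105, and 88, 75 and 117. The end regions were higher than the other common regions in 6 of 6 libraries, by 1.37 ± 0.12 (SD, n = 6) on the log2 scale or 2.59-fold (two-sided exact sign-flip permutation over the libraries, p = 0.03125, the smallest possible; adjusted p = 0.0391 over 5 such ratios). With the authors' fold in place of the pileup, which sets the summit against an expected background, the difference was 0.65. The 6 libraries measure the same regions, so this p covers the spread between libraries and not between regions.

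Regions near only a 3′ end had heights like those of regions inside genes. Their medians were 39, 35 and 37 with Res-shFabp7 and 27, 25 and 40 with Res-ctrl, against 40, 36 and 39 and 27, 25 and 40 for common regions inside genes. The log2 ratio was -0.026 ± 0.031 (SD, n = 6; exact sign-flip permutation p = 0.25). It was -0.037, -0.041 and -0.076 with Res-shFabp7 and 0 in each Res-ctrl library. A ratio of 0 has no sign to flip, so this p could not go below 0.25 and the test could not show a difference. Start regions exceeded those near only a 3′ end by 1.55 ± 0.088 (SD, n = 6) on the log2 scale, or 2.93-fold, in 6 of 6 libraries (exact sign-flip permutation p = 0.03125, adjusted p = 0.0391). Start regions were also wider, with a median of 601 bp against 298 bp near 3′ ends and 318 bp for the other common regions. Of the 10% of common regions with the highest pileup, 62.5 to 67.1% per library were end regions.

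**Figure D2:**
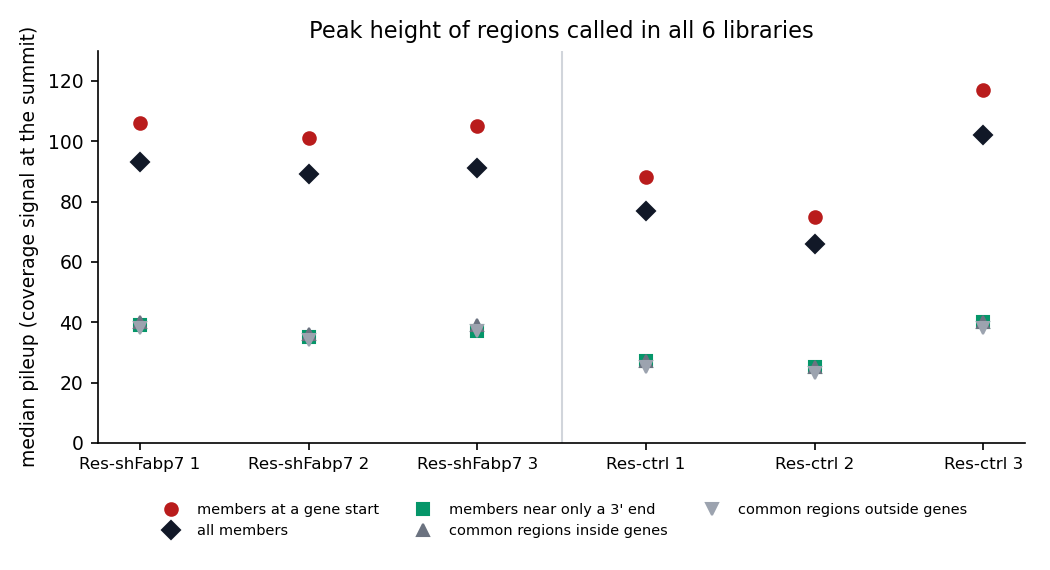
Median pileup (y axis) in each of the 6 libraries (x axis) for end regions at starts, all end regions, end regions near only a 3′ end, and common regions inside and outside genes. Starts lie between 75 and 117 and the 3′ end regions between 25 and 40, level with the regions inside genes.

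Regions near starts on opposite strands were higher still. The order of such starts was not checked, so divergent pairs were not told apart from overlapping ones. At 1144 regions the starts of genes on opposite strands lay within 1 kb of the same midpoint. Their median pileup was 142, 139 and 141 with Res-shFabp7 and 122, 103 and 156 with Res-ctrl, against 102, 97 and 99 and 85, 72 and 112 at the 9045 regions with a single start. The log2 ratio was 0.50 ± 0.020 (SD, n = 6), above 0 in 6 of 6 libraries (two-sided exact sign-flip permutation p = 0.03125). Their median width was 651 bp against 594 bp.

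Heights are compared across libraries by percentile rank, the position of a region's pileup among the 56599 common regions of that library, since pileups move with depth. The 10 highest named regions had a percentile of at least 99.97 in every library. They lay at Rab40c, Cic, Mtmr4, Ankhd1, Desi2, Mxd4, Hsd17b12, Tomm40, Rab5b and Dnpep. Rab40c (chr17:25919680-25920613) had pileups of 784, 736 and 799 with Res-shFabp7 and 666, 541 and 871 with Res-ctrl. Cic, a transcriptional repressor downstream of growth factor signalling, had 766, 724 and 799 and 611, 570 and 829, and Tomm40, the channel of the mitochondrial outer membrane, 734, 631 and 828 and 609, 490 and 783. In these 3 regions the groups overlapped, and within each group the highest pileup was in replicate 3.

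The lowest named regions were the weakest peaks shared by all 6 libraries. Tmbim6, Iqcj, Zfp612, Foxa3 and Spaca9 had pileups of 5 to 12 and mean percentiles of 1.25 to 1.55. At the limit of 1 kb lay Psen2 and St7l just inside, with mean percentiles of 65.2 and 53.1, and Fzd5 and Cyp2u1 just outside at 1001 bp, with pileups of 22 to 55 and 118 to 218.

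Genes with a constitutive end region made up 52.3% of all protein-coding genes, 11310 of 21631, and every share of a list is read beside that value. The peak calls chose these regions, so the lists describe the libraries and do not test the cell type. Of 18 CD8 T cell identity genes 17 had an end region, with a median percentile of 89.3 for the highest region of each gene. Runx3 had pileups of 348, 290 and 369 with Res-shFabp7 and 273, 260 and 405 with Res-ctrl. Lat, an adaptor of the T cell receptor, had 282, 269 and 277 and 189, 171 and 301, and its groups overlapped. Cd3e, a chain of the receptor, had 132, 134 and 152 and 108, 93 and 157 at its start. Cd8a, the co-receptor itself, had 88, 76 and 74 and 52, 45 and 79 at its start, a mean percentile of only 69.2. Gata3 was the exception at its outermost ends, and had a common region at another start listed by RefSeq.

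Lists of markers of other cell types had shares of 50% or less. The B cell list had 3 of 11 (Cr2, Ebf1 and Cd79b), the NK cell list 2 of 8, the myeloid list 5 of 15, the erythroid and megakaryocyte list 3 of 11 and the epithelial tumour list 6 of 12, near the share of all genes. Having no end region did not mean having no peak, since 3 of the 11 B cell, 4 of the 8 NK cell, 9 of the 15 myeloid, 8 of the 11 erythroid and megakaryocyte and 5 of the 12 epithelial tumour genes lacked any peak within 1 kb of an end. Cd79a, for example, had a peak in 4 libraries. No library had a peak within 1 kb of the ends of Ms4a1 or Pax5 of B cells, Lyz2, Csf1r or S100a8 of myeloid cells, Ncr1 of NK cells, Gata1 or Hbb-bt of erythroid cells, or Krt18, Krt19 or Nkx2-1 of lung epithelium. The median percentile of those that were open was 26.5 for the B cell list and 23.4 for the epithelial tumour list. It was higher for the others, at 44.9 for the erythroid and megakaryocyte, 45.8 for the NK cell and 61.8 for the myeloid list. The open myeloid genes were Spi1, Cd68, Itgam, Cd14 and Cebpa, with mean percentiles of 77.4, 67.4, 61.8, 29.0 and 22.8. The highest on the epithelial tumour list was Muc1 at 68.6. Of 9 CD4 and regulatory T cell markers 4 had an end region, Cd4 among them with a mean percentile of 69.6 and Zbtb7b, the factor of the CD4 lineage, with 91.9. Foxp3, Il17a and Il4 had none.

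T cell programmes differed in how many of their genes were open at an end and in how high. Naive and memory genes had 15 of 16, cytokine receptors and costimulation 17 of 18, exhaustion and checkpoint genes 14 of 16 and cytotoxic effector genes 15 of 21. The median percentile was 63.4 for the effector list, 77.4 for the checkpoint list and 78.45 for the naive and memory list. These were under the 84.6 of all genes with an end region, and the cytokine receptor and costimulation list was above it at 88.05. Interleukin genes had 11 of 33, with a median of 21.8. Id2 led the effector list at 397, 381 and 381 with Res-shFabp7 and 325, 304 and 386 with Res-ctrl. Gzmb had 124, 109 and 112 and 72, 81 and 130. Ifng had 66, 53 and 56 and 25, 21 and 51, and was lower in each Res-ctrl library than in any Res-shFabp7 library. By percentile, 6.45% of end regions and 11.6% of all common regions were separated in that direction. Pdcd1, which encodes PD-1, had 49, 37 and 58 and 41, 39 and 49, with overlapping groups.

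Among the memory and checkpoint genes, Klf2, a factor of quiescence and homing, reached a mean percentile of 98.6 and Cblb, a ubiquitin ligase that restrains activation, 99.3. Tox, a factor of exhausted cells, had 144, 118 and 143 with Res-shFabp7 and 130, 107 and 171 with Res-ctrl. Tcf7, a factor of naive and memory cells, had only regions away from its outermost start, at 783 bp downstream and 819 bp upstream, with mean percentiles of 48.8 and 48.4. Il2ra, the alpha chain of the interleukin 2 receptor, had 173, 129 and 138 and 99, 99 and 141 in a region around its start.

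Genes of growth and metabolism were mostly open at an end. An end region was found at 77 of 83 cytosolic ribosomal protein genes, 75 of 78 mitochondrial ribosomal protein genes, 37 of 39 proteasome genes, 82 of 92 respiratory chain genes, 31 of 32 spliceosome genes, 18 of 19 aminoacyl tRNA synthetases and 23 of 24 genes of DNA replication and the cell cycle. Their median percentiles lay between 86.8 and 93.2. Rplp0 had 405, 396 and 433 with Res-shFabp7 and 306, 281 and 432 with Res-ctrl, and Pcna, the sliding clamp of replication, 321, 287 and 327 and 234, 229 and 356. Circadian clock genes had 13 of 18 with a median percentile of 93.9, led by Per1 at 477, 419 and 475 and 383, 337 and 514. Ferroptosis and iron genes had 13 of 20 and fatty acid genes 17 of 21, with Acly, which makes cytosolic acetyl-CoA, at a mean percentile of 98.3.

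Shares in gene families used in other tissues lay under the 52.3% of all genes, and were lowest for sensory receptors and keratins. Olfactory receptors had an end region at 12 of 1110 genes, vomeronasal receptors at 2 of 355 and keratins at 1 of 53. Neuronal and muscle genes had 4 of 20 and potassium channels 30 of 94. Core histone genes had 67 of 99, with a median percentile of 96.4, the highest of the 13 families. Some histone genes share a region, and the 67 genes had 51 distinct highest regions.

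**Figure D3:**
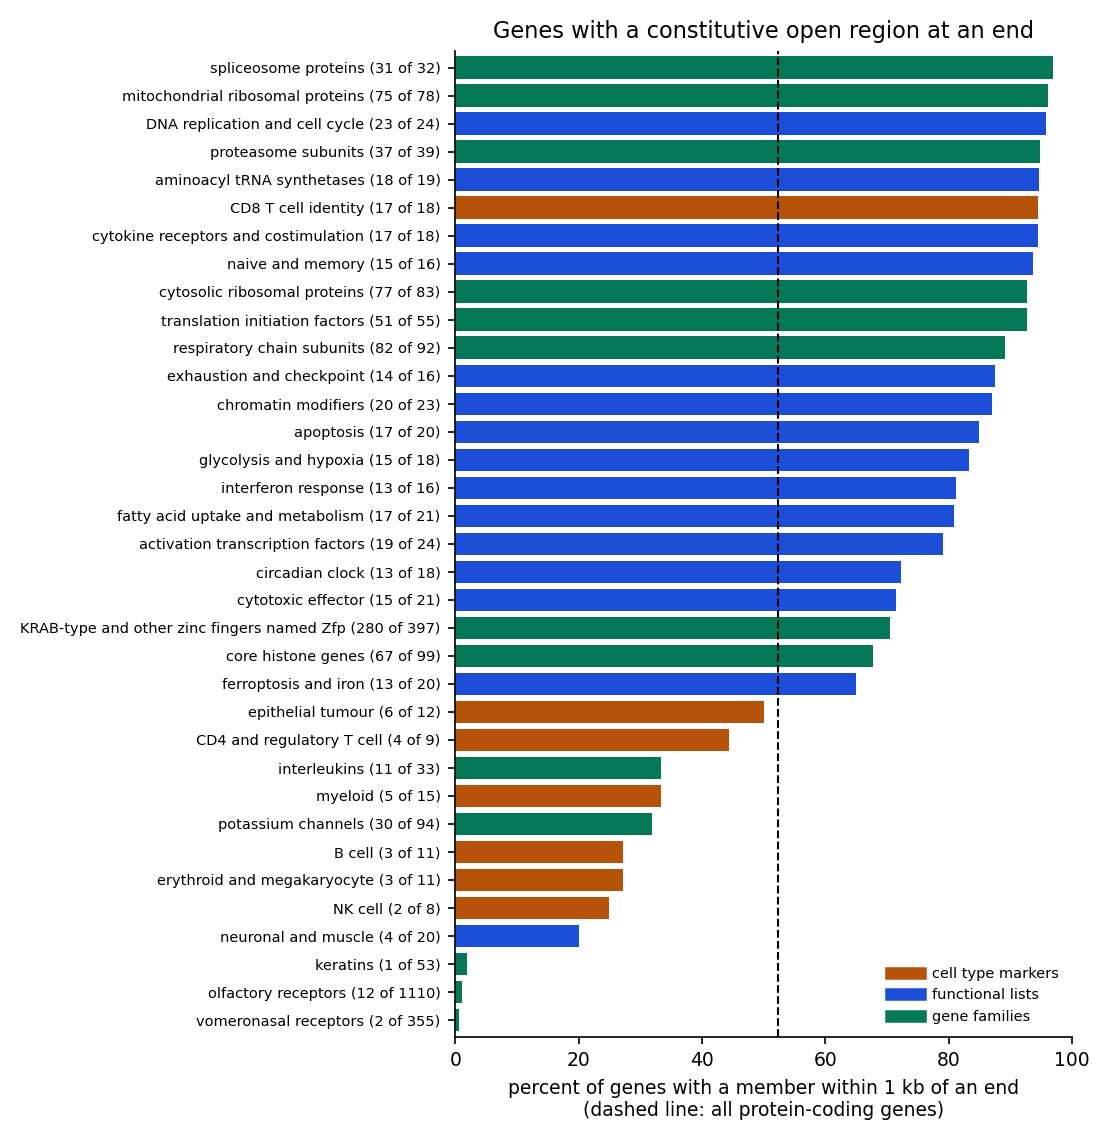
Percent of the genes of each list or family with a constitutive open region within 1 kb of an end (x axis), with the counts beside each name and colours for the kind of list. The dashed line is the 52.3% of all protein-coding genes, and the T cell and growth lists lie to its right while other cell types' markers and sensory receptors lie to its left.

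The CpG content of a start went with whether it was open. RefSeq gave a window of 300 bases around the start of 15534 genes, of which 7842 overlapped a constitutive end region and 6872 held no peak of any library. The median ratio of observed to expected CpG was 0.801 in the first and 0.216 in the second, and the median GC content 61.7% and 48.3%. The windows were put into 4 classes of equal size by that ratio. In the lowest class 5.10% overlapped an end region, then 33.0%, 76.6% and 87.3% in the classes that followed. Windows with a peak in only 1 to 5 libraries, 795 in all, were between the others at 0.625.

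Strings that contain CpG were more frequent in open windows, where CpG itself was more frequent, and its part in their frequency was not tested. The ETS string CCGGAAG was in 21.5% of the windows with an end region, 2.66% of those with no peak and 12.2% of all. The NRF1 string was in 4.50%, 0.524% and 2.56%, the YY1 string AAGATGGCG in 3.74%, 0.175% and 2.01%, and the SP and KLF string in 24.4%, 5.86% and 16.0%. The E-box CACGTG and the CREB and ATF string TGACGTCA showed the same order. The TATA box was the reverse, in 6.21% of windows with an end region and 23.1% of those with no peak. The AP-1, RUNX and STAT strings were also rarer in open windows, at 4.08% and 10.3%, 3.47% and 6.40%, and 6.59% and 9.60%. Windows with no peak also had less GC, and its part in these shares was not tested. A match is only a run of letters, and these strings were searched on both strands and may overlap each other.

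The NF-Y string showed another pattern. Windows with an end region and with no peak had like shares with at least 1 copy, and higher regions held more copies. The string was in 40.7% of windows with an end region, 39.9% of those with no peak and 39.8% of all. By number of copies the shares were not alike. Of windows with 0, 1, 2 and 3 or more copies, 49.8%, 45.8%, 56.25% and 75.4% had an end region. Among the open windows, the median pileup was higher with the number of copies. With 0, 1, 2 and 3 or more copies it was 125, 155, 223 and 338 in Res-shFabp7 replicate 1, 119, 147, 210 and 325 in replicate 2, and 122, 155, 223 and 340 in replicate 3. In Res-ctrl it was 105, 132, 183 and 276, then 88, 109, 153 and 238, then 137, 173, 244 and 367. The order was the same in 6 of 6 libraries. The 4 groups held 4652, 1848, 832 and 510 windows, with median percentiles of 83.1, 87.9, 93.9 and 98.1, and 30.5%, 43.8%, 63.3% and 83.9% of them above the 90th percentile. This count of copies was examined after the heights had been seen, and no test was made of it.

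The order held where CpG content was alike, except at the bottom. In the highest class of CpG the median percentile was 84.5, 89.5 and 96.6 with 0, 1 and 2 or more copies, in the third class 83.3, 89.4 and 96.4, and in the second 76.7, 80.2 and 91.1. In the lowest class, with 20 to 136 windows a group, it was 75.3, 68.8 and 73.2. Of the other 11 strings, 2 also had medians that were higher at both steps. The ZBTB33 string CTCGCGAG gave 86.5, 89.7 and 91.4, and the RUNX string 86.6, 86.7 and 88.4, with 20 and 11 windows of 2 or more copies.

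Copies of the string were frequent among the highest starts, though not in all of them. Of the 462 windows at regions above the 99th percentile 79.2% held the string and 57.8% held it 2 or more times, against 10.7% with 2 or more among windows with no peak. Neighbouring copies in those highest windows were a median of 47 bases apart, and 57.4% of 561 neighbouring pairs were 20 to 60 bases apart. From the 50th to the 90th percentile the median was 46 bases, with 47.3% of 406 pairs. Up to the 50th percentile it was 58 bases, with 42.9% of 77 pairs. Windows with no peak had a median of 64 bases and 34.4% of 922 pairs. The part of the number of copies in the spacing was not tested. The 6 printed pairs were chosen for holding a pair and add nothing to these shares. Over all open windows 1342 of 7842, or 17.1%, held 2 or more copies. Core histone genes held them in 43 of 58 open windows, circadian clock genes in 4 of 8, DNA replication and cell cycle genes in 9 of 19, cytosolic ribosomal protein genes in 6 of 54 and CD8 T cell identity genes in 1 of 10.

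**Figure D4:**
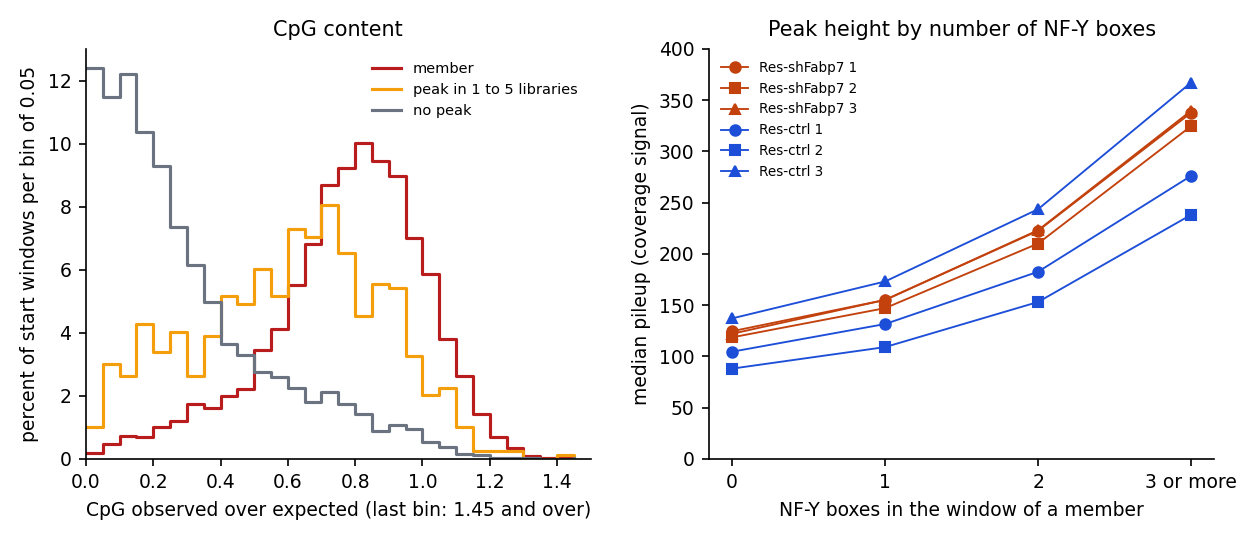
Left, distribution of the ratio of observed to expected CpG (x axis, bins of 0.05) as percent of start windows (y axis) for windows with a constitutive end region, with a peak in 1 to 5 libraries and with no peak. Right, median pileup (y axis) of end regions whose start window holds 0, 1, 2 or 3 and more NF-Y strings (x axis), 1 line per library. The median pileup is higher at each step in all 6 libraries.

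Whether the T cells' end regions differed with the tumour cells was asked of their ranks. As a whole the end regions ranked slightly lower with Res-shFabp7. Their median percentile was 75.0, 75.7 and 75.2 with Res-shFabp7 and 77.6, 76.3 and 75.9 with Res-ctrl, so the groups did not overlap, and the means were 75.3 ± 0.35 and 76.6 ± 0.91 (SD, n = 3 each). The difference was -1.34 points (exact permutation, two-sided, p = 0.1, below which 3 against 3 cannot go; adjusted p = 0.15 over 9 such values). It was -0.833 without Res-ctrl replicate 1. With only Res-ctrl replicate 3 as the control, which had a background of 1.01, it was -0.647. The mean background was 0.951 ± 0.079 in the Res-shFabp7 libraries against 0.774 ± 0.21 in the Res-ctrl libraries (SD, n = 3), and its part in the difference was not tested.

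The share of each library's peaks that lay in end regions was 16.0, 16.1 and 16.8% with Res-shFabp7 and 20.9, 22.3 and 17.5% with Res-ctrl (two-sided exact permutation p = 0.1, adjusted p = 0.15). Every library has a peak in each of these regions, so the share moves with the length of the list. The difference was -3.95 points, -1.30 with equal numbers of peaks and -1.24 with only Res-ctrl replicate 3 as the control. Single peaks in end regions had a median width of 361, 337 and 353 bp, and 287, 262 and 345 bp, with overlapping groups (exact permutation p = 0.2). The difference in width was 52.3 bp, and 5.33 bp with only Res-ctrl replicate 3 as the control.

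Single end regions were compared by normal scores of these ranks, values on the scale of a standard normal distribution, in a limma fit over all 56599 common regions. At an adjusted p of 0.05, 0 end regions were higher with Res-shFabp7 and 0 were lower, where 0.00177% and 0% of all common regions were. At an unadjusted p of 0.05 the counts were 376 and 948 of 13774, or 2.73% and 6.88%, beside 8.26% and 7.39% of all common regions. Ranked among the end regions alone, which centres each library on them, they were 931 and 857. The median score difference, Res-shFabp7 minus Res-ctrl, was -0.042 over the end regions, -0.010 over all common regions and 0.0065 over the others.

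The number of calls turned on how limma modelled the spread. With a variance that follows the mean score, a setting added after the data had been seen, 116 end regions were higher with Res-shFabp7 and 228 were lower at an adjusted p of 0.05, or 0.842% and 1.66%, beside 2.72% and 1.19% of all common regions. Leaving out Res-shFabp7 replicates 1, 2 and 3 in turn gave 17 and 57, 38 and 102, and 23 and 79. Over all 56599 common regions these fits gave 270 and 174, 677 and 334, and 474 and 258. Leaving out Res-ctrl replicates 1, 2 and 3 gave 53 and 69, 67 and 132, and 158 and 323, beside 750 and 229, 1038 and 326, and 2101 and 727 over all common regions. The genes that follow were picked from that fit after their values were seen, not in strict order of p. Regions of smaller p than some of them were passed over. These include Ccdc33, Kcnk10 and Togaram1, higher with Res-shFabp7, and Plekho2, Dennd3 and Pgpep1, higher with Res-ctrl. Each gene described is given with its adjusted p with the trend and without it.

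Chac1, a glutathione-degrading enzyme of the stress response to amino acid shortage, had the smallest p. Its start region (chr2:119350731-119351603) had pileups of 150, 154 and 137 with Res-shFabp7 and 62, 56 and 88 with Res-ctrl. Its percentiles were 86.9, 88.5 and 85.2 against 72.1, 72.0 and 71.9, so the 3 Res-ctrl libraries lay within 1 point of each other. The score difference was 0.54 ± 0.077 (SE; limma adjusted p = 0.000152 with the trend and 0.113 without).

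Other regions higher with Res-shFabp7 in that fit included those at Gbp2, H2-T23 and Stat2. Gbp2, an interferon-induced guanylate-binding protein, had pileups of 267, 287 and 310 with Res-shFabp7 and 167, 164 and 220 with Res-ctrl (limma adjusted p = 0.000936 with the trend and 0.176 without). H2-T23, the nonclassical MHC molecule Qa-1, had 219, 217 and 237 and 134, 118 and 187 (0.00281 and 0.162). Stat2, which carries the interferon signal to the nucleus, had 407, 402 and 399 and 272, 230 and 392 (0.00781 and 0.201). In these 3 regions, picked from that fit, every Res-shFabp7 percentile was above every Res-ctrl percentile. The same was true of 6.45% of end regions and 11.6% of all common regions. Of the 13 interferon response genes with an end region only Stat2 passed at its highest region with the trend, and the median score difference of their highest regions was 0.0895, against -0.028 over all genes.

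On the T cell lists few regions passed with the trend. Of all end regions 0.842% passed as higher with Res-shFabp7, and of all common regions 2.72%. Higher with Res-shFabp7 were 1 of 21 end regions of the effector list, 2 of 32 of the activation transcription factors, 2 of 29 of the cytokine receptors and costimulation, 1 of 33 of the naive and memory genes and 1 of 11 of the interleukins, and 0 of 23 of the checkpoint genes and 0 of 27 of the CD8 identity genes. The Ifng start had a limma adjusted p of 0.0443 with the trend and 0.212 without, while the regions at the starts of Gzmb, Il2ra and Pdcd1 did not pass in either fit. The 2 activation transcription factors were Rel (limma adjusted p = 0.0121 with the trend and 0.237 without) and Myc (0.0292 and 0.205). Egr4, an immediate early factor on none of these lists, had 33, 34 and 33 with Res-shFabp7 and 10, 10 and 20 with Res-ctrl (limma adjusted p = 0.0209 and 0.113). Il2, the growth factor of T cells, had 27, 30 and 39 and 8, 13 and 15 (0.0243 and 0.185). Of 5 end regions at Cd69, an early activation antigen, 2 passed with the trend, 1 of them with 42, 29 and 40 and 15, 12 and 20 (0.0368 and 0.121). The highest of the 5, next to an end of the gene, had 268, 264 and 231 and 176, 145 and 261 with overlapping groups (0.122 and 0.422).

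Regions higher with Res-ctrl included those at Rhob, Prex1, Upf2 and Zfp36. Rhob, a small GTPase, had pileups of 170, 168 and 174 with Res-shFabp7 and 217, 168 and 263 with Res-ctrl, and percentiles of 89.4, 90.2 and 89.8 against 96.1, 94.7 and 94.9 (limma adjusted p = 0.000448 with the trend and 0.145 without). Prex1, an activator of Rac, had 146, 99 and 123 and 159, 127 and 217 (0.000493 and 0.172). Upf2, a factor of nonsense-mediated decay, had 126, 148 and 150 and 193, 160 and 201 (0.000663 and 0.192). Zfp36, which binds AU-rich messenger RNA of cytokines and speeds its decay, had 96, 87 and 86 and 117, 107 and 147 (0.000854 and 0.134). A lower region at a start of Foxo1, a factor of T cell quiescence, had 59, 53 and 62 and 72, 69 and 78 (0.0201 and 0.198), and Zbtb7b 181, 149 and 184 and 187, 149 and 248 (0.0123 and 0.221). At Rhob, Prex1, Upf2, Zfp36 and Zbtb7b, picked from that fit, the percentiles of the groups did not overlap. In that direction 14.5% of end regions and 11.2% of all common regions showed no overlap.

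**Figure D5:**
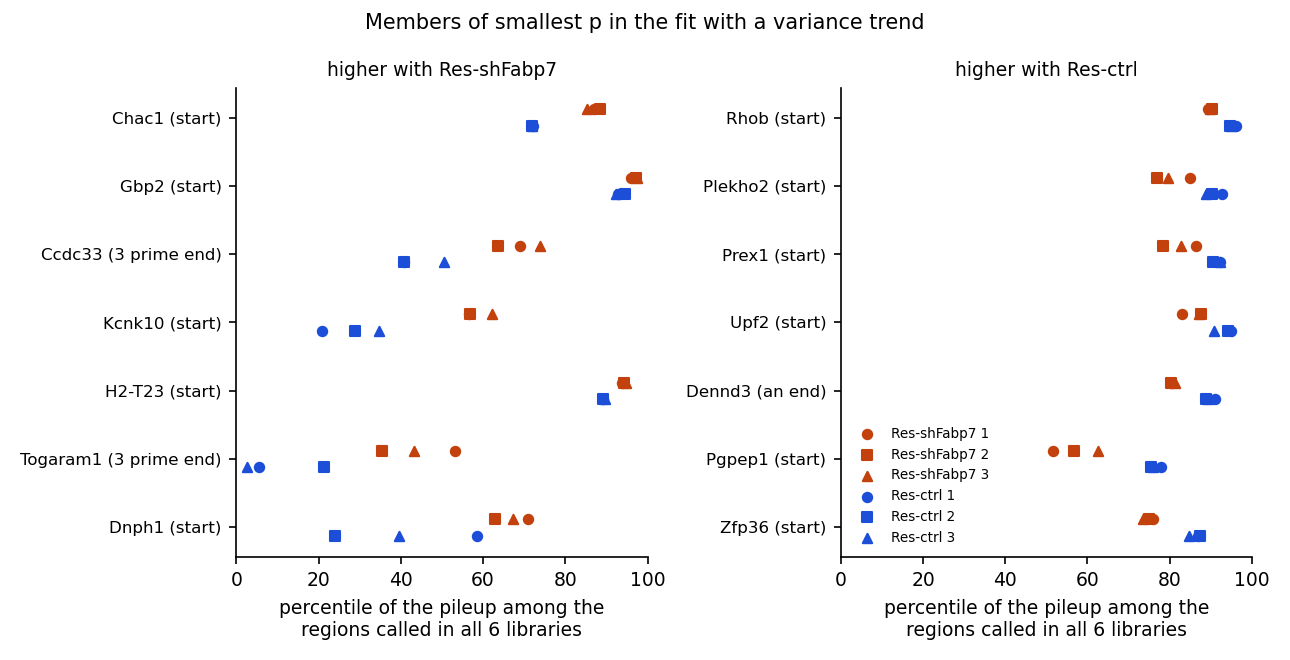
Percentile of the pileup among the common regions (x axis) in each library for the 7 named end regions of smallest p in each direction in the limma fit with a variance trend, with the gene and the end on the y axis. The groups do not overlap at any of the 14 regions, which were chosen by that fit, and Res-ctrl replicate 3 sits with the other Res-ctrl libraries at Chac1 and H2-T23.

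The regions of smallest p in the fit without the trend were weaker peaks. Lbhd2 had pileups of 20, 15 and 18 with Res-shFabp7 and 7, 7 and 10 with Res-ctrl, Slc13a3, near its 3′ end, 26, 22 and 30 and 9, 8 and 14, and Calhm1 35, 32 and 27 and 10, 8 and 15 (limma adjusted p = 0.105 each). In the other direction Lrp1 had 18, 15 and 18 and 21, 22 and 35, Zfp768 19, 14 and 16 and 22, 21 and 33, and Snph 15, 13 and 12 and 15, 13 and 23 (limma adjusted p = 0.105, 0.105 and 0.106). With the trend, Lbhd2 and Snph were at 0.142 and 0.125 and the other 4 were under 0.05.

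End regions kept their rank across libraries more closely than other common regions did, in step with their height. The median range of a region's percentile over the 6 libraries was 8.11 points for end regions and 16.2 for the others. Within steps of 10 points of mean percentile the difference was small. It was 1.86 against 2.73 points in the highest step and 19.7 against 20.1 from the 40th to the 50th percentile.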

How the data were processed

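The 6 ATAC-seq peak lists came from 3 libraries per group. The submitters' processing notes name Bowtie (1.1.2), MACS2 (2.2.7.1), Trim Galore (0.6.5) and cutadapt (2.8), and the build mm10. No source used here gives the read shift, the handling of duplicates or the MACS2 mode. The deposited lists give, per peak and called per library, the authors' pileup (a coverage signal), fold enrichment (a ratio), −log10 p and −log10 q. Reads were not used, so regions without a call have no value.

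Starts in the lists count from 0 and are printed from 1. Gene ends, strands and sequences came from RefSeq tables for GRCm38.p6, and 4357 genes had no strand there. Pileups were ranked among the 56599 common regions of each library, turned into normal scores and tested with limma 3.58.1 (R 4.3.3), with Benjamini-Hochberg adjustment and no block. The fit was tested on simulated data. Single values were tested with exact permutation tests (scipy 1.17.1). With separate mice not stated, p-values measure the spread between these samples. A library's background, the most common value of (pileup + 1) / fold - 1 over its peaks, is the expected coverage the fold was set against and stood in for depth.

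The regions and gene lists were chosen with earlier results of these data known. Named genes were the 10 regions of highest lowest rank, up to 3 per list, up to 3 of smallest p per direction where none passed, the 5 lowest, those nearest to 1 kb and a fixed set of T cell genes. Others are said to be chosen after their values were seen. Alternatives covered the distance, the overlap, the q threshold, the height measure and each library left out. Some genes that the rule names are not reported here.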

Additional observations from a re-analysis of the deposited data

How the results depend on the processing

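Of 103 alternatives over 9 results, 89 kept the direction and the side of the threshold, or a count within 1.5 times. No result reversed. For the group differences in share of peaks, median percentile and width, with 11 alternatives each, only the direction could change. With 3 or fewer libraries per group their exact tests cannot go below p = 0.1, so none could cross 0.05. The width difference counted as kept though it fell from 52.3 bp to 5.33 bp with only Res-ctrl replicate 3 as the control. The number of end regions lay between 10812 and 17084, and between 14051 and 14389 with 1 library left out. At an adjusted p of 0.05 limma called 116 regions higher with Res-shFabp7 and 228 higher with Res-ctrl with a variance trend, against 0 and 0 without it, and the cause was not tested. In the other alternatives limma called 0 and 0. Leaving out 1 library, the height of end regions against other common regions ranged from 1.33 to 1.40 on the log2 scale, and that of starts against 3′ ends from 1.52 to 1.57. With 5 libraries the exact sign-flip permutation cannot go below p = 0.0625, so both missed the threshold there. The group difference in the share of peaks ranged from -5.30 to -2.91 points, that in median percentile from -1.69 to -0.833, and that in width from 34.3 to 75.8 bp. Same-numbered libraries showed no shared deviation in rank (correlations of same-numbered deviations -0.0245, 0.0151 and -0.0159). These values cannot show whether such libraries shared mice, which is not stated. With the replicate number as a block limma called 0 and 0 regions. At an unadjusted p of 0.05 it called 298 and 733 of 13774 end regions, beside 4311 and 3861 of 56599 common regions. The share, percentile and width differences stayed at -3.95, -1.34 and 52.3. Each had an exact sign-flip permutation p of 0.25, the smallest that 3 pairs allow. Res-ctrl replicates 1 and 2 had the lowest background, and weak peaks may be missed there.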

Other observations

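Genes without an end region were not all closed. Of 274 genes on the functional lists 45 had none, and 28 of these 45 had a common region at another start listed by RefSeq, while 7 had neither that nor a peak within 1 kb. Of 84 cell type markers 44 had none, and only 2 of these had a common region at another listed start. Of all genes, 7674 had 1 end region, 2796 had 2, 684 had 3 and 131 had 4. Acap1 and Ctdsp1 had the most, with 6 each.

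The share of genes with an end region varied by chromosome. It was 61.8% on chromosome 11, 60.7% on chromosome 8 and 60.4% on chromosome 19, against 43.0% on chromosome 7 and 33.0% on X, where 319 of 966 genes had one. The few olfactory receptor genes with an end region, 12 of 1110, had a median percentile of 20.9 at their highest region.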
